A study of Sus scrofa with 8 samples.

Results

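Apolipoproteins were examined in islets isolated from neonatal pigs of 3 and 7 days of age, on the Affymetrix porcine GeneChip. The genes looked for were APOA1, APOA2, APOA4, APOB, APOC3, APOD, APOE, APOH, APOM and APOR, and each was read by every probe set whose platform annotation gives its symbol and no other. A probe set is a set of short DNA probes on the array for one transcript, and its intensity stands for the level of that transcript. Of the 10 listed genes 9 had a probe set and 1, APOR, had none, which gave 10 probe sets of 23999 other than controls. Of these 10 probe sets 9, of 8 genes, reached the 20th percentile of at least 1 array and were tested, among 21574 in all.

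The donors of both groups were male Duroc/Large white crosses. Their pancreases were cut up and digested with collagenase, and the tissue was kept in culture for 7 days, in a Ham's F10 medium with glucose, isobutylmethylxanthine, albumin and nicotinamide, before RNA was taken. There were 4 arrays labelled 3-day-old and 4 labelled 7-day-old, and the title of each array gives 1 numbered pig. The titles do not mention pooling, and the only difference they name between the groups is the age of the donor. The cultured tissue is not a purified cell type. The methods provide for a further round of amplification where the starting cRNA was low, and the sources do not say whether any of these samples had it.

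Apolipoproteins are the protein part of lipoproteins, the particles that carry cholesterol and triglycerides in blood. They hold the particle together, switch the enzymes that remodel it on or off, and serve as ligands for the receptors that take it up. Liver and small intestine make most of the plasma pool, while some members, APOE and APOD among them, are also made by glial cells, macrophages or fibroblasts.

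Each array had the same trimmed mean intensity, and array medians lay between 171.6 and 178.5. The 20th percentile of an array, below which a probe set is called dim here, lay between 26.4 and 31.3. Log2 intensities correlated at 0.942 to 0.957 between arrays of one label and at 0.93 to 0.94 between labels, a description across probe sets. The first principal component held 26.2% of the variance and separated the labels, and on the next, with 14.9%, 7-day-old replicates 3 and 4 lay at opposite ends, apart from the other arrays. The endocrine markers INS, GCG and SST were above the median of every array, as were 3 of 10 tested hepatocyte markers (SERPINA1, TF and TTR), whereas ALB, the main plasma protein of hepatocytes, reached the 20th percentile in 4 of 8 arrays. The number of arrays limits the precision, and an intensity was compared between arrays, not between probe sets.

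APOA1 and APOD were lower in the arrays labelled 7-day-old, and APOC3 was higher. APOA1 is the main structural protein of high-density lipoprotein, APOD is a small lipid-binding protein of the lipocalin family, and APOC3 is an inhibitor of lipoprotein lipase. These 3 of the 9 tested probe sets passed the test (limma, adjusted p under 0.05), where 10.7% of all probe sets tested did. Among all probe sets tested 5.47% passed as lower and 5.21% as higher at 7 days. In the same 3 probe sets all 4 arrays of one label lay beyond all 4 of the other, which held for 21.2% of all probe sets tested. APOC3 entered the test only through 7-day-old arrays, the group where it was higher, so its place in both counts follows in part from the filter, and its call was lost with no filter (adjusted p = 0.0532). The other 6 did not pass. The median log2 difference, 7-day-old minus 3-day-old, was -0.26 over the 9 probe sets and 0.0 over all probe sets tested. The study gives the opposite direction for APOA1, higher in the older pigs. It does so for APOD by another probe set, which is outside the annotation, is described below and was also lower here. The direction is also opposite for every probe set in its tables of changed genes, KNG1, TTR, NEUROD1, PECAM1, CDH5 and DCN among them. The disagreement is thus one of direction across those tables and not of single genes. It is not known from these sources whether the ages of all arrays are exchanged in the deposit or the direction is reversed in those tables. Arrays are named here by their deposited labels, and with the ages exchanged every direction given here would turn while sizes and p-values would stay. APOA1 was singled out by the study on these same samples. APOD is listed in its supplement, only by the probe set outside the annotation. The calls of both genes here are therefore not independent evidence of the study's results.

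**Figure D1:**
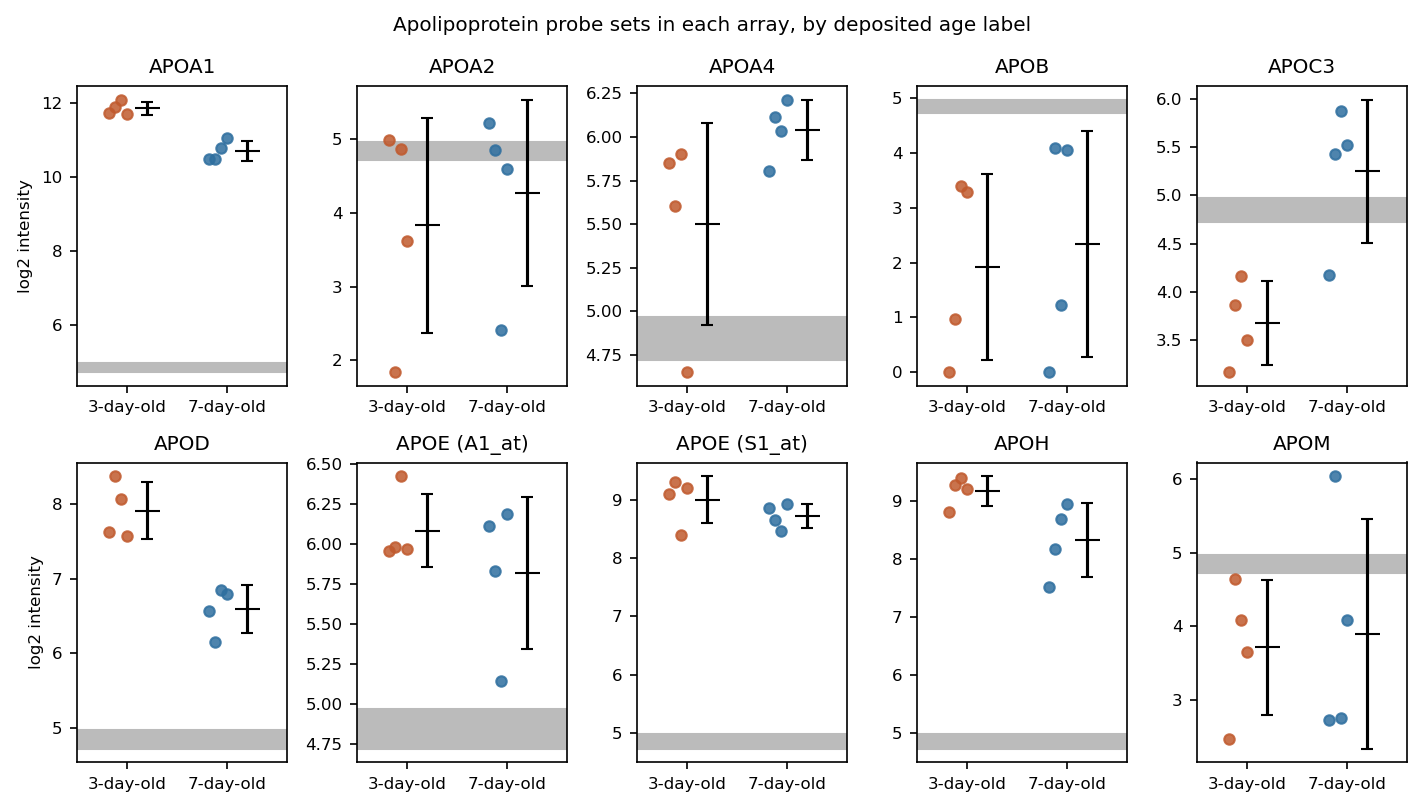
Log2 intensity of the 10 apolipoprotein probe sets in each array, with 1 panel per probe set and its own vertical axis. Points are single arrays, the bar and whiskers are the mean ± SD of the 4 arrays of a label, and the grey band runs from the lowest to the highest 20th percentile of the arrays (26.4 to 31.3 before log2). The labels do not overlap in APOA1, APOD and APOC3, and all arrays of APOB lie below the band.

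APOA1 was the member with the smallest adjusted p. Its probe set read 3400, 3802, 4326 and 3308 in 3-day-old replicates 1 to 4. It read 1420, 1416, 1767 and 2110 in 7-day-old replicates 1 to 4. Every 7-day-old array was thus below every 3-day-old array, and all 8 lay above the array median. The mean intensity was 3709 ± 464.1 (SD, n = 4) in the 3-day-old and 1678 ± 331.8 (SD, n = 4) in the 7-day-old group. On the log2 scale APOA1 fell by 1.16 (SE 0.161, 95% interval -1.53 to -0.78), 2.23-fold, with an adjusted p of 0.00809. The exact permutation test of the 8 arrays gave p = 0.0286, the smallest that 4 against 4 allows. Among all probe sets tested 768 had a larger fall. In bulk islet RNA fewer cells of a type and less RNA per cell cannot be told apart, here and in the results that follow.

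APOD is known for expression in glial cells and fibroblasts and binds arachidonic acid and steroids. Its annotated probe set read 197.9, 331.7, 269.2 and 190.6 in 3-day-old replicates 1 to 4. It read 95.05, 71.14, 115.3 and 111.1 in 7-day-old replicates 1 to 4. The highest 7-day-old array was below the lowest 3-day-old array. The means were 247.4 ± 66.45 and 98.16 ± 20.02 (SD, n = 4 each). The log2 difference was -1.32 (SE 0.23, 95% interval -1.85 to -0.79), a fall of 2.5-fold, with an adjusted p of 0.0153 and an exact permutation p of 0.0286. A larger fall was found in 538 of the probe sets tested. The intervals of APOA1 and APOD overlapped.

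A further probe set has no symbol in the annotation and is listed as APOD in the study's supplement, so it lies outside the rule and is not counted above. It read 214.4, 321.3, 281.7 and 140.3 in 3-day-old replicates 1 to 4 and 77.46, 29.8, 76.92 and 77.2 in 7-day-old replicates 1 to 4. These groups did not overlap either, and 7-day-old replicate 2 was the lowest array in both probe sets. The log2 difference was -1.91 (SE 0.391) with an adjusted p of 0.0249. It did not pass without 3-day-old replicate 1, 2 or 3 or without 7-day-old replicate 1, with adjusted p from 0.0512 to 0.0679 and log2 differences from -2.02 to -1.74.

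APOC3 was the only member called higher in the 7-day-old group, and it was dim. Its probe set read 8.976, 14.52, 17.96 and 11.35 in 3-day-old replicates 1 to 4, all below the 20th percentile of their arrays. It read 18.06, 43.12, 58.44 and 46.07 in 7-day-old replicates 1 to 4, of which replicate 1 was also below that percentile. The lowest 7-day-old array was next to the highest 3-day-old array. APOC3 therefore entered the test only through 3 arrays of the group where it was higher. The means were 13.2 ± 3.903 and 41.42 ± 16.93 (SD, n = 4 each), which is 1.58 higher on the log2 scale (SE 0.387, 95% interval 0.67 to 2.48). The adjusted p was 0.0426 and the exact permutation p 0.0286. With the 3-day-old arrays set to their 20th percentile, the difference was 0.33 on the log2 scale, or 1.25-fold. This is a point estimate and does not give a smallest increase. With every value below the 20th percentile of its array raised to it before the fit, APOC3 did not pass (0.48, adjusted p = 0.153). The call was also lost when any array but 7-day-old replicate 1 was left out, with adjusted p from 0.0643 to 0.103, and was kept without that replicate, with a log2 difference of 1.93 and an adjusted p of 0.02. In the RefSeq table of the pig assembly Sscrofa11.1, APOA4, APOC3 and APOA1 follow each other as neighbouring protein-coding genes, so the members called higher and lower include direct neighbours.

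**Figure D2:**
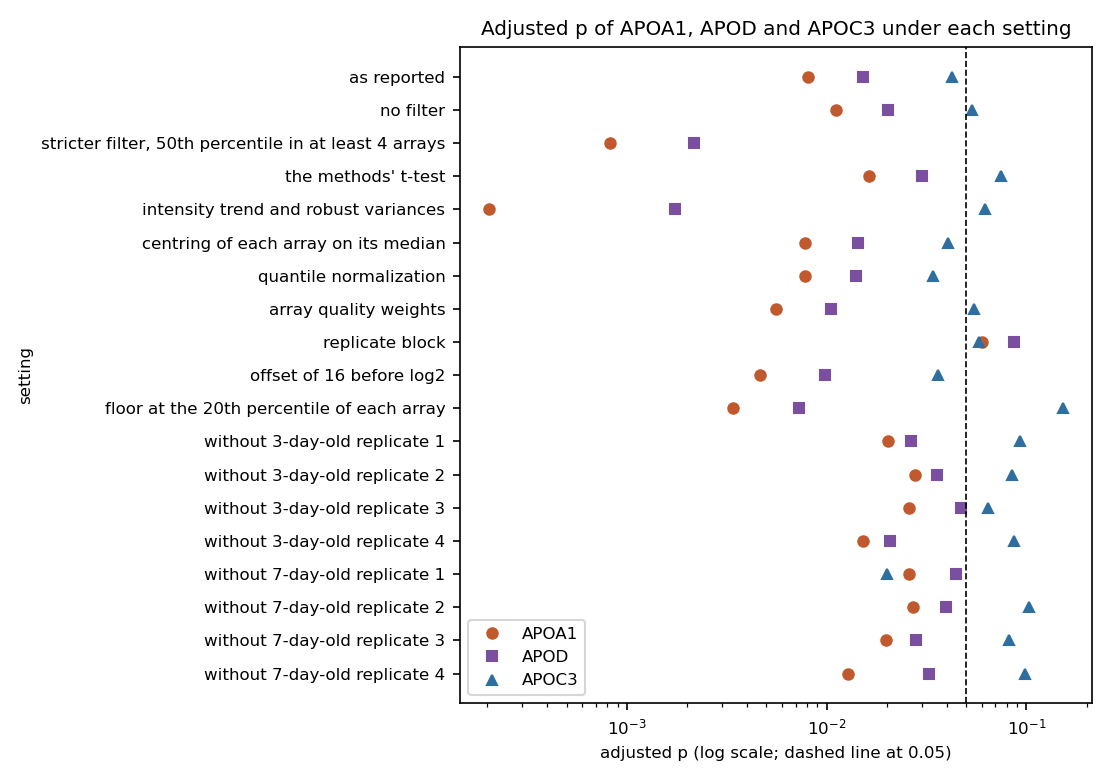
Adjusted p (horizontal, log scale) of APOA1, APOD and APOC3 under each setting (vertical), with the dashed line at 0.05. APOA1 and APOD lie left of the line in all settings except the replicate block (0.0599 and 0.0867), whereas APOC3 (0.0426 as reported) lies right of it in 13 of 17 alternatives and has no value under the stricter filter, which it did not pass.

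APOH, a phospholipid-binding plasma glycoprotein, was lower on average in the 7-day-old group without passing the test. It read 446.2, 615, 673 and 592.3 in 3-day-old replicates 1 to 4. The 7-day-old replicates 1 to 4 read 181.6, 286.2, 413.2 and 493.8. Replicate 4 of the 7-day-old group lay above replicate 1 of the 3-day-old group, and the other 7-day-old arrays lay below all 3-day-old arrays. The means were 581.6 ± 96.44 and 343.7 ± 137.8 (SD, n = 4 each). The log2 difference was -0.84 (SE 0.312, 95% interval -1.57 to -0.11), with an adjusted p of 0.13 (limma) and an exact permutation p of 0.0571. All 8 arrays were above the array median. Over 18 alternatives the difference stayed between -1.05 and -0.57 and the adjusted p between 0.0513 and 0.244.

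APOE is the ligand through which remnant particles are taken up by receptors of the LDL receptor family. One of its 2 probe sets, with the suffix S1_at, was above the median of every array and read 554.5, 633.6, 340.3 and 590.2 in 3-day-old replicates 1 to 4. In 7-day-old replicates 1 to 4 it read 464.6, 406, 353.9 and 487.5. The groups overlapped, with 3-day-old replicate 3 the lowest array of all. The log2 difference was -0.28 (95% interval -0.78 to 0.22, adjusted p = 0.446, exact permutation p = 0.257). The other, with the suffix A1_at, ran between 62.19 and 86.03 in the 3-day-old and between 35.45 and 73.02 in the 7-day-old arrays. Its log2 difference was -0.26 (95% interval -0.83 to 0.3, adjusted p = 0.534). In this probe set 3-day-old replicate 3 was the highest of all arrays, so both readings of APOE gave a small negative difference but ordered the arrays differently.

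APOA4, an apolipoprotein of intestinal chylomicrons, read 57.68, 48.66, 59.7 and 25.13 in 3-day-old replicates 1 to 4. It read 55.8, 69.28, 65.46 and 74 in 7-day-old replicates 1 to 4. One array, 3-day-old replicate 4, fell below the 20th percentile, whereas replicates 1 and 3 of that group lay within the 7-day-old range. The log2 difference was 0.54 (95% interval -0.11 to 1.18, adjusted p = 0.255, exact permutation p = 0.0857).

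APOA2, APOM and APOB were dim. APOA2, another protein of high-density lipoprotein, reached the 20th percentile in 3 arrays and ran from 3.566 to 31.91 in the 3-day-old and from 5.302 to 37.29 in the 7-day-old arrays. APOM, a lipocalin of high-density lipoprotein, reached it in 1 array, 7-day-old replicate 2 at 66.06, and ran from 5.534 to 24.95 in the 3-day-old arrays. Their log2 differences of 0.44 (95% interval -1.57 to 2.45) and 0.19 (95% interval -1.7 to 2.07) did not pass, with adjusted p of 0.786 and 0.906. These intervals include differences as large as those of APOA1 and APOD in either direction. Across the alternatives the APOA2 difference ran from -0.22 to 1.06 and that of APOM from -0.23 to 0.58. The APOM range leaves out the fit without 7-day-old replicate 2, because APOM then failed the filter. APOM thus entered the test only through this array, and its other 7-day-old arrays read 6.565, 6.697 and 16.99. APOB, the structural protein of chylomicrons and low-density lipoprotein, was below the 20th percentile in all 8 arrays, at 0.7351 to 10.53 and 0.9811 to 17.07, and was not tested by limma. Its exact permutation p was 0.686.

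APOR had no probe set under that symbol. The RefSeq table gives APOR as a synonym of C4BPA, the alpha chain of the complement inhibitor C4b-binding protein, whose probe set lies outside the rule. C4BPA read 71.44, 41.37, 77.27 and 93.76 in 3-day-old replicates 1 to 4 and 42.54, 33.84, 74.11 and 39.66 in 7-day-old replicates 1 to 4. The groups overlapped, and the log2 difference was -0.58 (95% interval -1.33 to 0.16) with an adjusted p of 0.284.

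**Figure D3:**
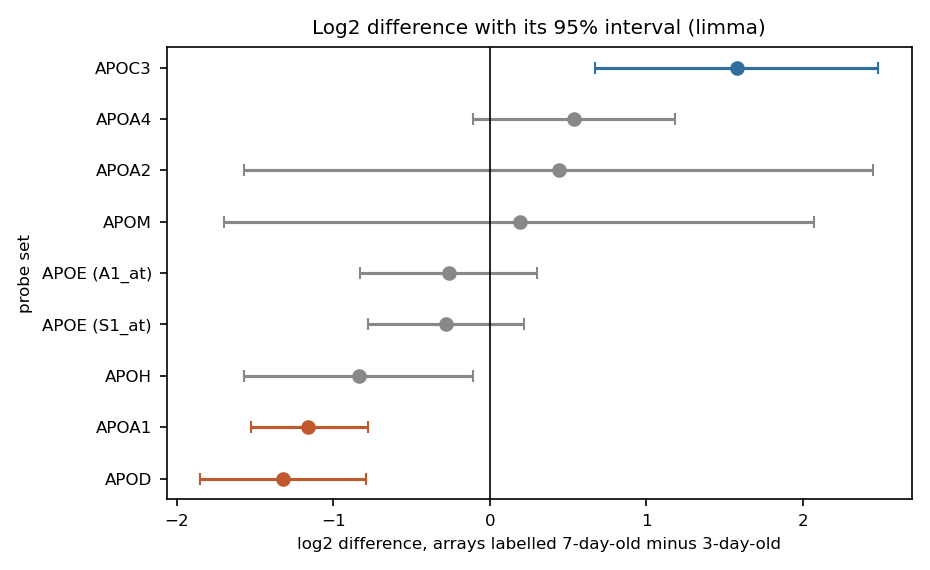
Log2 difference, 7-day-old minus 3-day-old, of the 9 tested apolipoprotein probe sets (horizontal, with its 95% interval from limma), ordered by size. Orange and blue mark probe sets that passed as lower and as higher and grey those that did not, and the intervals of the dim APOA2 and APOM are the widest.

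The genes whose profile over the 8 arrays was closest to that of each called member were found by the root mean square difference of centred log2 values, with 1 probe set per gene and 6544 other genes. For APOA1 they were PTGDS, a prostaglandin D synthase (0.111), ITIH5, an inter-alpha-trypsin inhibitor heavy chain (0.116), and GPM6B, a membrane proteolipid of neural cells (0.129), against a median of 0.648 over all genes. For APOD they were the neurofilament light chain NEFL (0.155), the reticulon RTN1 (0.167) and the urea cycle enzyme ASS1 (0.198), with a median of 0.753. For APOC3 the nearest genes were LYPD6 (0.49), FXYD3 (0.512) and ITIH3 (0.541), with a median of 0.984. The nearest genes of APOC3 were thus farther from it than those of APOA1 and APOD were from theirs, and so was the median gene. The distance keeps the difference between labels, and APOC3 was dim. It therefore cannot separate a trait of APOC3 from noise near background.

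The rest of the lipoprotein pathway, with plasma proteins of liver beside it, was described by 5 lists. Each gene was read by 1 probe set, the one with the highest mean. Of 75 list genes tested 3 were higher and 8 lower in the 7-day-old arrays. Of all genes tested 5.03% were higher and 7.15% lower, and their median log2 difference was -0.02. The plasma proteins, which lie outside the pathway, were 20 of the 75 and gave 2 of the higher and 2 of the lower genes. Of 17 other apolipoproteins 5 had a probe set and 4 were tested. APOF, an inhibitor of cholesteryl ester transfer, was higher, at 257.1 ± 23.2 in the 3-day-old against 384.5 ± 35.94 in the 7-day-old arrays (mean ± SD, n = 4 each, in this order for the genes that follow too), which is 0.58 on the log2 scale (adjusted p = 0.0194). It did not pass without 3-day-old replicate 2 or 3 or without 7-day-old replicate 1 (adjusted p 0.0504 to 0.0565). CLU, also called apolipoprotein J, differed by 0.03 (adjusted p = 0.86), and APOC2, the activator of lipoprotein lipase, was below the 20th percentile in every array, both named after their values were seen. The median of the 4 was 0.11.

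Of 14 lipoprotein receptors and related genes tested 2 were lower and none higher, with a median of -0.05. They were LRP10, an LDL receptor family member, at 2443 ± 150.3 against 1595 ± 93.23 (log2 difference -0.62, adjusted p = 0.00829), and NPC1, which carries cholesterol out of lysosomes, at 420.5 ± 30.74 against 303.9 ± 23.34 (log2 difference -0.47, adjusted p = 0.0235). NPC1 did not pass without 3-day-old replicate 3 or without 7-day-old replicate 1, 3 or 4 (adjusted p 0.0503 to 0.0621). The receptor genes VLDLR (0.42, adjusted p = 0.181) and SCARB1 (0.01, adjusted p = 0.956), which were chosen after their values were seen, did not pass.

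Among 18 tested genes of lipoprotein assembly, efflux and remodelling 15 had a negative difference, 2 were called lower and none higher, and the median was -0.36. ANGPTL4, an inhibitor of lipoprotein lipase, was at 136.3 ± 27.14 against 46.72 ± 15.01, a log2 difference of -1.58 (adjusted p = 0.0137), and its other probe set also passed (-1.24, adjusted p = 0.0342). The lactonase PON2 was at 1536 ± 65.8 against 1046 ± 187.4 (-0.57, adjusted p = 0.0345). It passed without 7-day-old replicate 1 (adjusted p = 0.02) and did not pass without any other single array (0.0609 to 0.0908). ABCA1, which loads cholesterol onto APOA1, differed by -0.5 (adjusted p = 0.12), and MTTP, which loads lipid onto APOB, by -0.33 (adjusted p = 0.629). Both were chosen after their values were seen.

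Among 19 tested transcription factors known to act on apolipoprotein genes 2 were lower, none higher, and the median was -0.24. CEBPB was at 1545 ± 217.1 against 864.6 ± 96.88 (-0.83, adjusted p = 0.0125). CEBPD was at 4519 ± 439 against 2988 ± 358.2 (-0.6, adjusted p = 0.0252), and of its other probe sets one passed (-0.78, adjusted p = 0.036) and one did not (-0.51, adjusted p = 0.169). CEBPD did not pass without 3-day-old replicate 1, 2 or 3 or without 7-day-old replicate 2 (adjusted p 0.0572 to 0.0672). HNF4A, a nuclear receptor that drives APOA1 and APOC3 in liver, differed by -0.09 (adjusted p = 0.597) and was also chosen after its value was seen.

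Of 20 plasma proteins of liver tested 2 were lower and 2 higher, with a median of 0.08. The kininogen KNG1 was at 433.9 ± 97.9 against 145.1 ± 48.69 (-1.6, adjusted p = 0.0127), and of its other 3 probe sets 1 passed, also as lower. The thyroxine carrier TTR was at 6288 ± 2775 against 12210 ± 650.5 (1.05, adjusted p = 0.0458). TTR did not pass without the filter (adjusted p = 0.057) or by the methods' t-test (0.0755). It passed without 3-day-old replicate 4 (1.32, adjusted p = 0.00795) and did not pass without any other single array (0.0873 to 0.107). ITIH3 was at 23.01 ± 5.637 against 49.87 ± 16.98 (1.09, adjusted p = 0.0454). All its 3-day-old arrays were below the 20th percentile, so it too entered the test only through the group where it was higher. With those arrays set to that percentile the difference was 1.58-fold, a point estimate. ITIH3 did not pass with every value below that percentile raised to it (0.66, adjusted p = 0.0758). It did not pass without the filter (adjusted p = 0.0566) or when any single array was left out (0.0595 to 0.111). Its other probe sets gave 0.88 and -1.23 without passing. The complement component C3, not taken by the rule for named genes, was the other gene called lower (-0.93, adjusted p = 0.00538).

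**Figure D4:**
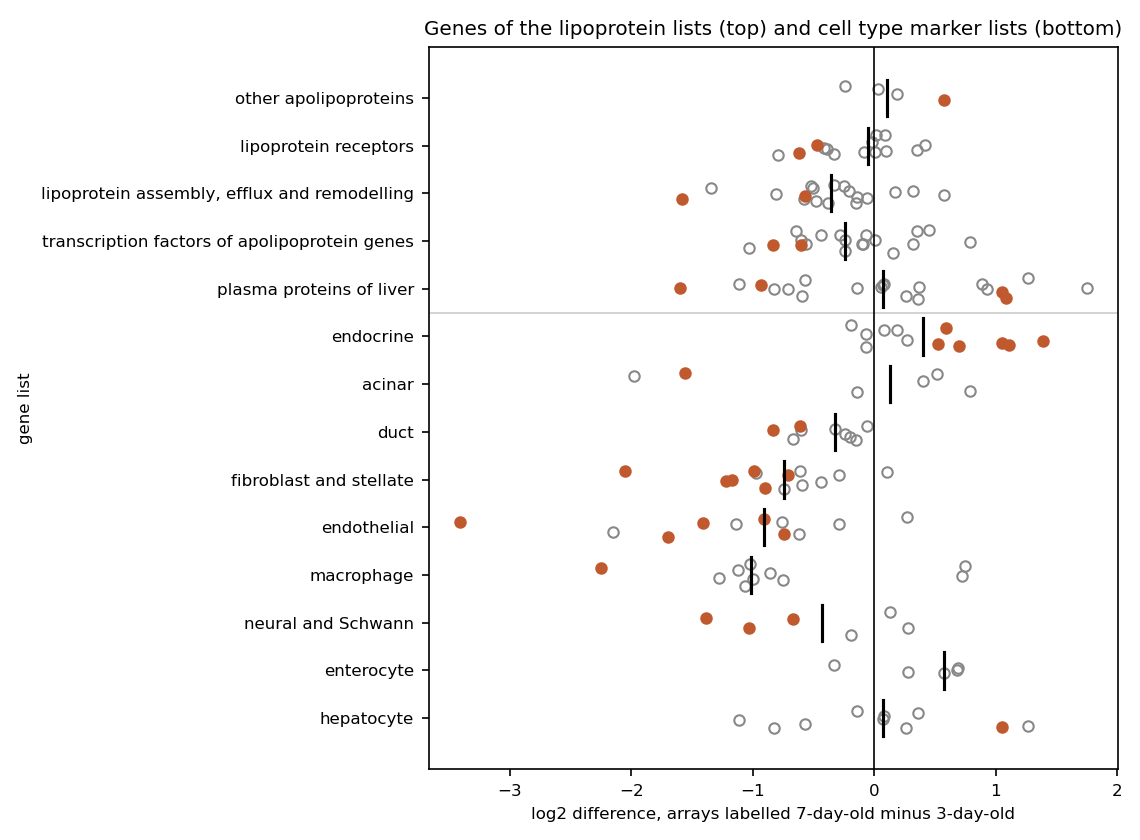
Log2 difference, 7-day-old minus 3-day-old, of each tested gene (points). The 5 lists of the lipoprotein pathway and of plasma proteins of liver are above the grey line, and the 9 cell type marker lists below it. Filled points passed the test, open points did not, and the bar is the median of the list, which is lowest for the macrophage (-1.01) and endothelial (-0.91) markers.

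Some markers of cell types other than endocrine cells were lower in the same arrays as APOA1 and APOD, by the deposited labels, which the study's tables reverse for PECAM1, CDH5 and DCN too. The counts below stand beside 7.15% of all genes tested called lower and 5.03% called higher. Of 13 fibroblast and stellate markers 6 were lower and none higher. The summed intensity of the list was 59450 to 78090 in the 3-day-old and 44250 to 50100 in the 7-day-old arrays. Each sum follows the brightest probe sets of its list, in this list VIM, SPARC and FN1, none of which passed. Of 6 neural and Schwann cell markers GAP43 (-1.03), GFAP (-1.38) and S100B (-0.67) were lower, whereas SOX10 (0.13) and MBP (0.28) did not pass, and the sum was 3415 to 5018 against 2794 to 3355. Of 11 endothelial markers 5 were lower, with sums of 2278 to 2727 against 1025 to 1242. One of the 5, TIE1, was below the 20th percentile in all 7-day-old arrays and entered the test only through the 3-day-old arrays. Of 10 macrophage markers 1 was lower, TYROBP, and the sums of 777.1 to 2197 and 461.3 to 825.7 overlapped. Of 9 duct markers 2 were lower, with sums of 61010 to 66850 against 54100 to 57280, and of 6 acinar markers 1 was lower, with sums of 32680 to 36750 against 27750 to 43100. No marker of these lists was called higher. Their part in the lower values of APOA1 and APOD was not tested.

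Endocrine markers were 6 higher and none lower of 12 tested, and IAPP was below the 20th percentile in all arrays. Those called were CHGB, SCG2, SCG3, PCSK1, PCSK2 and NEUROD1. The hormone genes INS (-0.07), GCG (-0.19), SST (0.08), PPY (0.19) and GHRL (-0.07) did not pass, nor did CHGA (0.27). The sums of 132200 to 164700 in the 3-day-old and 152000 to 187500 in the 7-day-old arrays overlapped. Of 5 enterocyte markers none passed, with a median of 0.58 and sums of 3270 to 5202 against 4767 to 6526. The median is the value of FABP2, a dim gene that reached the 20th percentile in 1 array. Of 10 genes listed as hepatocyte markers 1 was higher, TTR, with sums of 12820 to 22480 against 17290 to 23400. These sums follow TTR, TF and SERPINA1, whereas ALB reached the 20th percentile in 4 arrays and TAT in none. The part of these markers in the APOC3 and APOA4 values was not tested.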

How the data were processed

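One array of the Affymetrix porcine GeneChip was run for each of 8 pigs, and groups and replicate numbers came from the deposited labels. The deposited values are linear intensities of 24123 probe sets, from 0.0399699 to 41079.3, scaled by the authors to a common trimmed mean (500.1 in each array, with 2% cut at either end). The sources used here do not name the summarising software, and the median normalization per probe set in the methods was not applied to these values.

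Intensities below 1 were set to 1 (1528 values) and put on the log2 scale. Control probe sets were left out, and a probe set was tested when at least 1 array had it at or above that array's 20th percentile. The comparison used lmFit and eBayes of limma 3.58.1 under R 4.3.3 (two-sided, no covariates, Benjamini-Hochberg over all 21574 probe sets, threshold 0.05), with a two-sided exact permutation test of the 8 arrays for each of the 10 member probe sets, of which 3 gave the smallest p of 0.0286. The limma script was tested on simulated data first. Other computations ran in Python 3.11.15 (pandas 2.3.3, numpy 2.4.6, scipy 1.17.1, and matplotlib 3.10.9 for plots).

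The platform annotation gives 1 symbol to 10069 probe sets and several to 198, which named no gene. Of the Entrez identifiers 9961 were in the RefSeq table, and no symbol changed. The members and lists were chosen with earlier results of these data known. The text names all members, up to 3 called genes per list with the largest difference, and the 3 genes nearest in profile to each called member, and says where a gene was added after its values were seen. The lists of cell type markers were described by counts and sums.

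The alternatives were no filter, a stricter filter (50th percentile in at least 4 arrays), the methods' t-test, and an intensity trend with robust variances. Others were array quality weights, centring on the array median, quantile normalization, a block for the replicate number, and an offset of 16 before log2. Each array was also left out in turn, and the probe sets of a gene were averaged for the lists. A floor at the 20th percentile of each array was chosen after seeing the data. The methods' t-test means the unpaired t-test they name, run on the values and filter used here. It does not repeat the study's own test, which had another filter and normalization.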

Additional observations from a re-analysis of the deposited data

Results flagged for a closer look

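In 40 groups of 4 arrays, the gap between the highest or lowest array and its neighbour was divided by the range of the group and set against Dixon's critical value at 95%. Chance flags about 1 in 20 groups, and 3 were flagged here. In the APOE probe set with the suffix A1_at, 3-day-old replicate 3 was highest, at 86.0 against 62.2 to 63.2 in the other arrays of its label (ratio 0.949). In APOF 7-day-old replicate 2 was lowest, at 331 against 396 to 409 (ratio 0.847). In CEBPD 7-day-old replicate 1 was lowest, at 2450 against 3130 to 3220 (ratio 0.898). The groups of APOF and CEBPD did not overlap between labels with these arrays included.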

How the results depend on the processing

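The same direction held for APOA1 (log2 difference -1.27 to -1.08) and APOD (-1.43 to -1.17) under all 18 alternatives, and both stayed past the threshold except with the replicate block (adjusted p = 0.0599 and 0.0867). APOC3 stayed positive (0.48 to 1.93) under 17 alternatives and was lost in 13, among them no filter (adjusted p = 0.0532), the methods' t-test (0.0744), an intensity trend with robust variances (0.0619), array quality weights (0.0548) and the replicate block (0.0581). The cause was not tested. The number of apolipoprotein probe sets called, 3, became 0 with the replicate block, where 4 had an unadjusted p under 0.05, and was 2 or 3 under the others, including 2 to 3 with single arrays left out and 2 by the methods' t-test.

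All probe sets called numbered 2305, and 3491 with an intensity trend and robust variances, 0 with the replicate block (5264 at an unadjusted p under 0.05) and 1020 to 1877 with single arrays left out. Genes called in the 5 lists, plasma proteins of liver included, numbered 11. They numbered 18 with the stricter filter, where fewer probe sets were tested, and 19 with the trend. They numbered 0 with the replicate block and 6 to 11 with single arrays left out. Equal replicate numbers belong to different pigs, and array residuals of equal numbers correlated at -0.01348 to 0.00487, so the number gave no sign of pairing. Dim probe sets, APOA2, APOB, APOC3 and APOM among them, are limited by signal over background, and the spread between 4 arrays per label limits all others.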
